A study of Mus musculus with 21 samples.

Results

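The unfolded protein response is the transcriptional answer of a cell to misfolded protein in the endoplasmic reticulum (ER). It was followed here through 10 genes in mouse liver, chosen by symbol: Hspa5, Hsp90b1, Dnajb9, Sdf2l1, Creld2, Herpud1 and Xbp1, called the chaperone branch below (7 genes), and Atf4, Ddit3 and Trib3, called the Atf4 and Ddit3 branch (3 genes). All 10 were found among the 22520 genes of the table, and all 10 were among the 11394 genes with at least 1 FPKM (sequenced fragments per kilobase of transcript and per unit of mapped fragments, a level corrected for gene length and library size) in at least 2 groups, which were tested. RNA-seq of whole liver covered 4 genotypes in 3 conditions. The control genotype, WT, was Ezh2fl/fl without Cre. E1KO was Ezh1-/-, E2KO was Ezh2fl/flAlb-Cre and DKO was Ezh1-/-Ezh2fl/flAlb-Cre. The albumin promoter drives Cre and so deletes Ezh2 in hepatocytes, while liver cells in which Cre was never active keep it. All 4 genotypes were on a mixed 129SV::FVB/N::C57BL/6 background, and Ezh1 and Ezh2 encode the alternative catalytic subunits of the Polycomb complex PRC2. Mice were untreated at 2 months, untreated at 8 months, or were injected intraperitoneally from 3 months of age with 2 ml/kg CCl4 (carbon tetrachloride, which hepatocytes turn into a toxic radical), 2 times a week for 2 weeks, and were killed 24 h after the last injection. There was no untreated group at 3 months, so CCl4 and age cannot be told apart fully, and CCl4 is compared below with both untreated ages. The titles name 3 replicates per group (2 at 8 months), but each group has 1 FPKM value per gene, so no value here carries a spread between animals. In whole liver, fewer cells of a type and less RNA per cell cannot be told apart.

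Sensor proteins in the ER membrane are known to start the response. ATF6 is cleaved to a transcription factor, and IRE1 splices the Xbp1 message so that it encodes an active one. Both drive ER chaperone and degradation genes. PERK phosphorylates the translation factor eIF2alpha, which slows translation overall while it favours translation of ATF4, and ATF4 in turn drives amino acid genes and Ddit3. Hepatocytes secrete most plasma proteins, and their ER carries a heavy folding load in health.

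The promoters of 4 members hold the element through which ATF6 and XBP1 are known to act, and are shown because these are chaperone-branch genes whose levels are followed below. The ER stress element (ERSE) was searched as CCAAT and CCACG separated by 9 bases, and ERSE-II as ATTGG and CCACG separated by 1 base, on both strands, in the RefSeq window of 250 bases before to 50 bases after each gene's start (GRCm38.p6). The parts that match are in capitals, and each sequence is on the strand of its gene.
Hspa5, chr2:34772010-34772058, plus strand: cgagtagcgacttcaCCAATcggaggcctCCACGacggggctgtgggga
Hsp90b1, chr10:86705518-86705671, minus strand: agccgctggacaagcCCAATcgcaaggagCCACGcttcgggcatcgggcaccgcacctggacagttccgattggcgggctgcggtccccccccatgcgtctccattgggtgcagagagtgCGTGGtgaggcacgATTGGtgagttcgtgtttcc
Creld2, chr15:88819505-88819553, plus strand: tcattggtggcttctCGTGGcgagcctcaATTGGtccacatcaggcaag
Herpud1, chr8:94386362-94386402, plus strand: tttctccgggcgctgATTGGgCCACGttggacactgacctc
Hspa5 and Creld2 each held 1 full ERSE and Hsp90b1 held 2, the second of them on the opposite strand, as is the one of Creld2. An ERSE was found in 0.119% of the 32851 promoter windows of the table and ERSE-II in 0.0365%, and the only member with ERSE-II was Herpud1. The CCACG part alone, which any ERSE or ERSE-II contains, was in the windows of 7 of the 10 members and in 32.8% of all windows. The C/EBP-ATF element TGATGNAA, through which ATF4 is known to act, was found in Herpud1 and Trib3, and in 3.97% of all windows. The unfolded protein response element core TGACGTGG was in the window of none of the 10, against 0.676% of all windows. These matches describe letters and are not measured binding sites.

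The 8-month column labelled E1KO stood apart from its label. Its Ezh1 RNA was 0.88 FPKM, which is 43.1% of WT at that age, whereas in the other E1KO and in the DKO columns Ezh1 was 2.94% to 13.2% of the matched WT. The same column held the skeletal muscle markers at a summed 499.62 FPKM, against 1.29 to 2.03 in the other 11, and calls that rest on it are also given without it. Ezh2 RNA was 69% to 86.8% of WT in E2KO and 72.1% to 85.7% in E1KO, where Ezh2 is not deleted. In DKO it was 66.7% of WT at 2 months, 44.2% with CCl4 and, at 8 months, 140% (1.27 against 0.91 FPKM), above WT. Whole-liver Ezh2 RNA therefore did not check the Ezh2 deletion of the E2KO and DKO labels. Hepatocyte markers summed to 11305.84 FPKM or more in every column, the level of liver tissue.

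Levels per length, in FPKM, ran from Hspa5 and Hsp90b1, at ranks 241 and 298 of the table by mean FPKM, down to Ddit3 and Trib3, at ranks 4006 and 7327. Hspa5 encodes BiP, the main ER chaperone of the Hsp70 family, which also holds the sensors inactive. It measured 429.58 in WT, 436.67 in E1KO, 271.60 in E2KO and 436.16 in DKO at 2 months, then 285.08, 406.01, 754.52 and 229.70 at 8 months, and with CCl4 579.62, 557.51, 576.19 and 619.26, in the same order. The highest value of the 12 was thus E2KO at 8 months and the lowest was DKO at the same age, while the 4 CCl4 columns lay within a ratio of 1.11 of each other and above all 4 columns of 2 months. Hsp90b1, which encodes GRP94, the ER member of the Hsp90 family, measured 356.15, 335.08, 292.41 and 316.14 at 2 months, 303.13, 323.00, 480.00 and 219.41 at 8 months, and with CCl4 428.50, 510.61, 414.20 and 426.68. Its order repeats that of Hspa5 at 8 months, and again no CCl4 value overlapped the 2-month values. The share of all genes without such overlap was not counted. Between CCl4 and 2 months, 57.9% of all tested genes were called in the test described below.

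**Figure D1:**
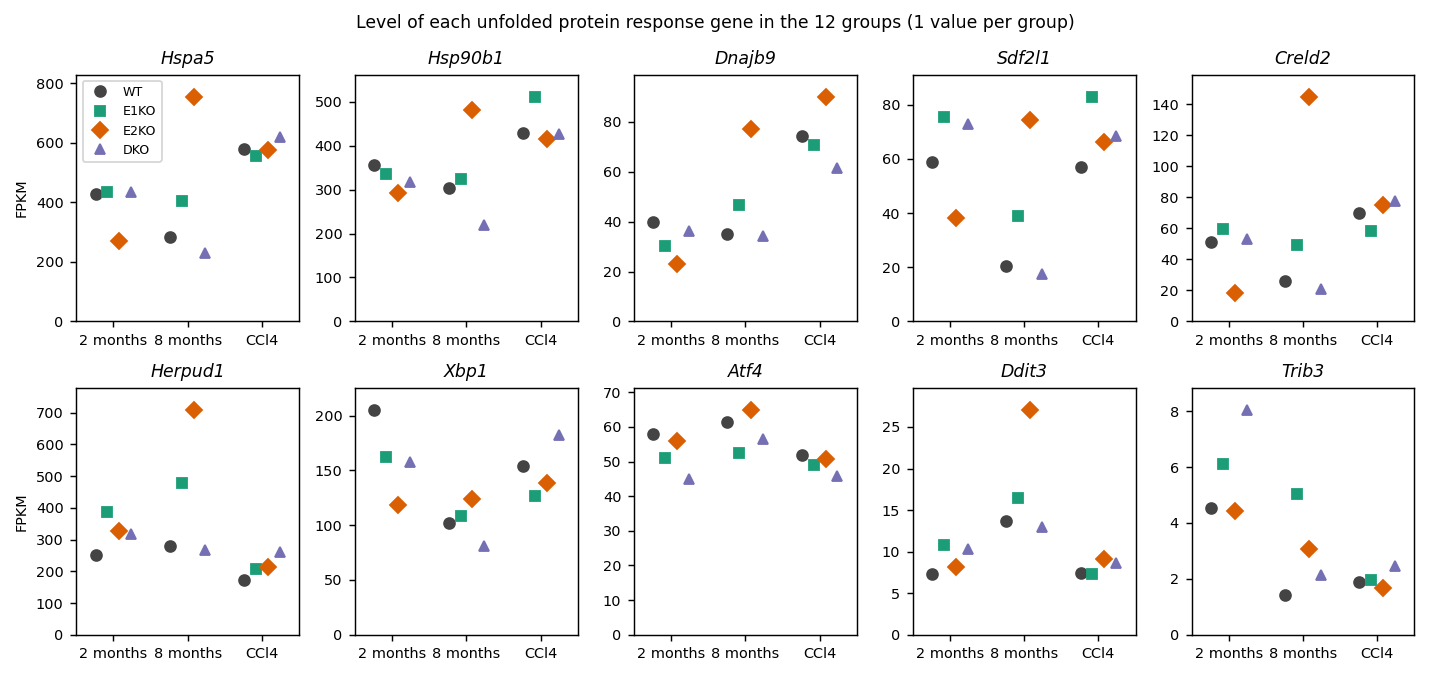
FPKM of each of the 10 genes (vertical axis from 0) against condition, with 1 point per group and genotype marked by colour and shape. The E2KO point at 8 months stands above the other 8-month points for 9 of 10 genes, and the CCl4 points of a gene lie within a ratio of 1.52 of each other.

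The chaperone branch also holds helpers of BiP. Dnajb9 encodes ERdj4, a cochaperone that feeds BiP and damps IRE1, and measured 40.02 in WT, 30.24 in E1KO, 22.94 in E2KO and 36.13 in DKO at 2 months, 34.92, 46.84, 77.20 and 34.09 FPKM at 8 months, and with CCl4 74.18, 70.57, 89.93 and 61.65. The lowest CCl4 column stood above the highest 2-month column, and only E2KO at 8 months reached the CCl4 range. How many of all genes were separated in this way was not counted. Sdf2l1, a partner in the BiP complex, measured 58.95, 75.55, 38.15 and 72.77 at 2 months, 20.44, 38.83, 74.24 and 17.69 at 8 months, and with CCl4 56.81, 82.83, 66.19 and 68.33 FPKM. WT and DKO at 8 months were its lowest values. Creld2 encodes a secreted protein that is made under ER stress and had the widest range, from 18.55 to 144.63 FPKM, a ratio of 7.80. It measured 51.05, 59.65, 18.55 and 53.21 at 2 months, 25.99, 49.30, 144.63 and 20.99 at 8 months, and with CCl4 69.88, 57.98, 75.09 and 77.75. The lowest and the highest of these are both E2KO, at 2 and at 8 months.

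Herpud1 and Xbp1 did not keep the order of the chaperones across conditions. Herpud1 encodes an ER membrane protein of the degradation machinery, and measured 250.19, 387.22, 326.62 and 316.02 FPKM at 2 months, 281.28, 478.45, 707.50 and 267.57 at 8 months, and with CCl4 172.85, 208.73, 213.82 and 261.99. E2KO at 8 months was again its highest value, while 3 of its 4 CCl4 values were its lowest, and DKO with CCl4 stood above WT at 2 months. Xbp1, the gene of the transcription factor that IRE1 activates by splicing, measured 204.92, 162.61, 118.89 and 157.71 at 2 months, 101.75, 108.55, 124.12 and 81.12 at 8 months, and with CCl4 153.66, 126.65, 138.35 and 182.77. WT at 2 months was highest, and in every genotype but E2KO the 8-month value was below the 2-month value. Gene-level values do not separate spliced from unspliced Xbp1.

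The 3 genes of the Atf4 and Ddit3 branch differed in level and in range. Atf4 was the steadiest member, at 58.05, 51.05, 56.04 and 44.97 FPKM at 2 months, 61.30, 52.40, 64.79 and 56.53 at 8 months, and with CCl4 51.77, 49.00, 50.64 and 45.68, a ratio of 1.44 from highest to lowest. ATF4 is regulated mainly in translation, which RNA levels do not show. Ddit3, which encodes CHOP, a transcription factor tied to cell death under lasting ER stress, measured 7.28, 10.81, 8.19 and 10.30 at 2 months, 13.70, 16.42, 27.01 and 12.94 at 8 months, and with CCl4 7.49, 7.28, 9.06 and 8.65. Every 8-month value of Ddit3 was above every value of the other conditions. Trib3, a pseudokinase gene that ATF4 and CHOP drive, measured 4.54, 6.12, 4.41 and 8.03 at 2 months, 1.41, 5.03, 3.05 and 2.15 at 8 months, and with CCl4 1.87, 1.97, 1.68 and 2.47. Its 2-month values all stood above its CCl4 values. The shares of all genes separated like Ddit3 or like Trib3 were not counted.

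CCl4 against 2 months compared livers after repeated CCl4 injections with untreated livers of younger mice. Of the 10 members, Dnajb9 rose and Trib3 fell, and the other 8 did not pass the test. Dnajb9 differed by 1.19 ± 0.27 on the log2(FPKM + 1) scale (SE; 2.28-fold; adjusted p = 0.00509), higher with CCl4 in 4 of 4 genotypes, and Trib3 by -1.15 ± 0.22 (adjusted p = 0.0022), lower in 4 of 4. The test was limma with additive terms for genotype and condition, two-sided, with Benjamini-Hochberg adjustment over the 11394 genes, and with 1 value per group its spread comes from how far the columns depart from additivity. Much of the transcriptome differed with CCl4: 33.4% of all tested genes were called higher and 24.5% lower, so 1 of 10 in each direction is below the background. Hspa5 differed by 0.59 ± 0.34 (adjusted p = 0.162), Hsp90b1 by 0.45 ± 0.20 (0.0759) and Creld2 by 0.73 ± 0.59 (0.32). Hspa5 and Hsp90b1 were higher in 4 of 4 genotypes and Creld2 in 3. Herpud1 differed by -0.57 ± 0.24 (adjusted p = 0.07) and was lower in 4 of 4. The rest differed by 0.19 (Sdf2l1), -0.09 (Xbp1), -0.09 (Atf4) and -0.14 (Ddit3).

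The 8-month E2KO column widened the spread of these genes, since it departed furthest from the additive fit for 7 of the 10 (9.35% of all genes had their largest departure there). Without that column, an alternative added after its values were seen, 11366 genes were tested and 5 members were called against 2 months: Dnajb9 (1.19, adjusted p = 0.00186), Hspa5 (0.59, 0.0294) and Hsp90b1 (0.45, 0.0123) higher, and Trib3 (-1.15, 0.00289) and Herpud1 (-0.57, 0.0223) lower. The background was then 33.5% higher and 24.6% lower. The differences were the same to 2 decimals in both fits, as that column enters neither mean. The column was left out after its values were seen, so a smaller spread for the members that departed furthest there follows from that choice. For Hspa5 the SE went from 0.34 to 0.19. Calls gained in this fit are therefore description. Dnajb9 and Trib3 passed in every alternative tried, including without the 8-month column labelled E1KO. Without the latter, 32.6% of all genes were called higher and 23.5% lower.

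**Figure D2:**
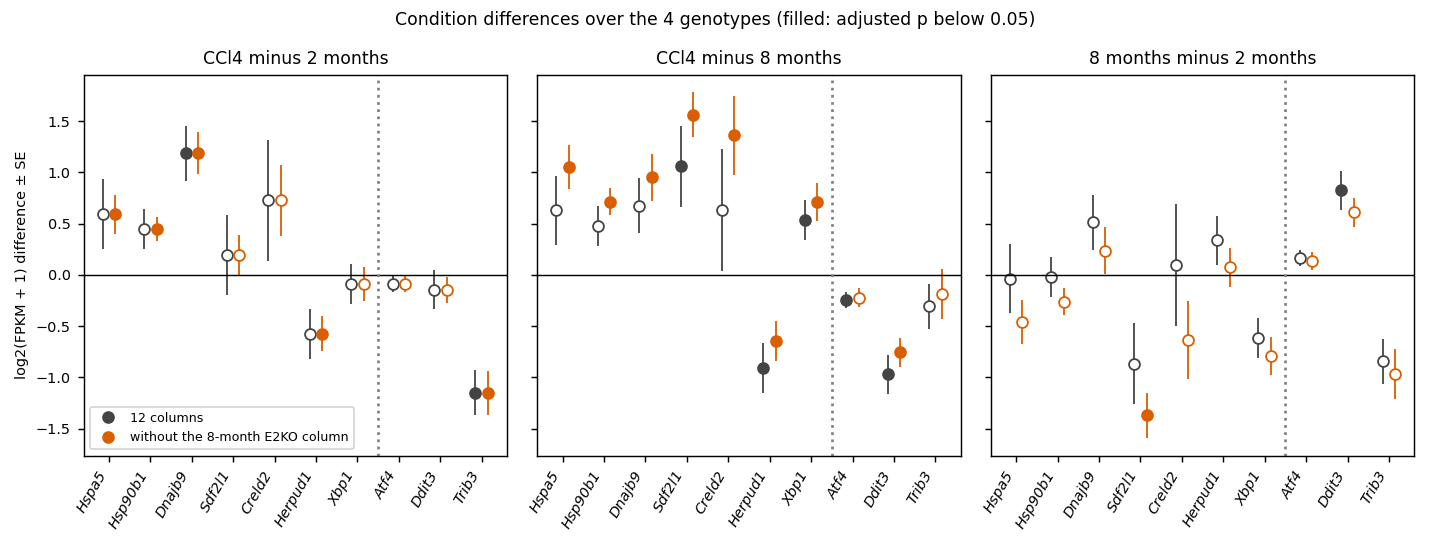
Difference between conditions on the log2(FPKM + 1) scale, over the 4 genotypes, with bars for the SE of the limma fit, for all 12 columns (grey) and without the 8-month E2KO column (orange). Filled points have an adjusted p below 0.05, and the dotted line separates the chaperone branch from Atf4, Ddit3 and Trib3. Dnajb9 is filled and above 0, and Trib3 filled and below 0, in both fits of CCl4 minus 2 months.

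Against 8 months, CCl4 gave 5 called members. Sdf2l1 rose by 1.06 ± 0.39 (adjusted p = 0.0438; higher in 3 of 4 genotypes) and Xbp1 by 0.53 ± 0.20 (0.0429; 4 of 4). Ddit3 fell by 0.97 ± 0.19 (0.00236), Herpud1 fell by 0.91 ± 0.24 (0.0109) and Atf4 fell by 0.25 ± 0.08 (0.0246), each of these 3 lower with CCl4 in 4 of 4 genotypes. For Herpud1 the pairs ran from -1.72 in E2KO to -0.03 in DKO, where the levels were nearly equal. The background was 34.3% higher and 25.2% lower, so 2 higher of 10 is below it and 3 lower of 10 is near it. Without the 8-month column labelled E1KO, Sdf2l1 (1.04, adjusted p = 0.0952) and Xbp1 (0.59, 0.0622) no longer passed and 3 members did, all lower (30.6% of genes higher and 21.3% lower). Without the 8-month E2KO column 8 members passed: Hspa5 (1.05, adjusted p = 0.00452), Hsp90b1 (0.71, 0.00291), Dnajb9 (0.95, 0.00931), Sdf2l1 (1.56, 0.000956), Creld2 (1.36, 0.0184) and Xbp1 (0.71, 0.0134) rose, and Herpud1 (-0.65, 0.0231) and Ddit3 (-0.75, 0.00319) fell. In that fit 32.2% of all genes were called higher and 22.6% lower, and Atf4 no longer passed (adjusted p = 0.0731). Leaving out that column also moved the 8-month mean, and the smaller spread follows from a choice made after the values were seen. The added calls are therefore description. The direction of Herpud1 and Ddit3, lower with CCl4 than at 8 months, therefore held with and without either column, while the calls of the chaperone genes changed with the column left out.

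Age had 1 called member. Ddit3 rose from 2 to 8 months by 0.82 ± 0.19 (1.77-fold; adjusted p = 0.0491), higher in 4 of 4 genotypes, against a background of 2.70% of genes called higher and 1.59% lower. The call is at the edge of the threshold. It was lost without the 8-month column labelled E1KO (0.85, adjusted p = 0.119; 0.774% of genes higher and 0.343% lower) and without the 8-month E2KO column (0.61, 0.0651), and also without any single genotype. Trib3 differed by -0.84 ± 0.22 (adjusted p = 0.0684; lower in 4 of 4), Xbp1 by -0.62 ± 0.20 (0.111; lower in 3 of 4) and Sdf2l1 by -0.87 ± 0.39 (0.236; lower in 3 of 4). Without the 8-month E2KO column Sdf2l1 passed as lower at 8 months (-1.37, adjusted p = 0.0252), where 2.02% of genes were called higher and 1.07% lower. This call has the same limit, as the column was left out after its values were seen. Within WT alone, 3 members were at least 2-fold lower at 8 than at 2 months on the log2(FPKM + 1) scale, against 1.93% of all genes. Within DKO 3 were, against 1.33%. Within E1KO 0 of 10 were at least 2-fold lower (1.73% of all genes). Within E2KO none was either (1.22%), and 5 were at least 2-fold higher (1.76%). These pairs are single values and have no test.

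No genotype contrast called a member. Over the 3 conditions, DKO against WT called 0 of 10 members (2.62% of all genes; 1 member, Atf4, at an unadjusted p under 0.05, with -0.22 ± 0.09 and adjusted p = 0.242). E1KO against WT called 0 of 10 (0.0176% of all genes; 0 members at an unadjusted p under 0.05). E2KO against WT called 0 of 10, and 0% of all genes, while 155 genes, among the members only Herpud1 (0.67 ± 0.28), had an unadjusted p under 0.05. The change of DKO from 2 months to CCl4, and likewise to 8 months, was compared in a fit with DKO-by-condition terms. The comparison was with the average change of the other 3 genotypes, and not of WT alone. For 8 months that average includes the E2KO column and the column labelled E1KO. Neither term called a member (0.290% and 0.246% of all genes), and 0 members had an unadjusted p under 0.05 in either.

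Within single conditions the genotypes are described here with no test. At 8 months E2KO was the highest of the 4 columns for 9 of 10 members, the exception being Trib3, while DKO was the lowest for 8. The share of all genes with such an order was not counted. E2KO was above WT in all 10 at that age, against 49.6% of all genes. The FPKM ratio was 5.56 for Creld2, 3.63 for Sdf2l1, 2.65 for Hspa5, 2.52 for Herpud1 and 2.21 for Dnajb9. These 5 of 7 chaperone genes were the members at least 2-fold higher on the log2(FPKM + 1) scale, against 1.38% of all genes, and the median over the 10 was 1.03, against 0 over all tested genes. In the other branch the ratio was 1.97 for Ddit3 and 1.06 for Atf4, with Trib3 at 2.16 from low values, and none of the 3 reached 2-fold on that scale. Against DKO of the same age 7 of 10 members were at least 2-fold higher (2.12% of all genes), and against E2KO at 2 months 5 of 10 (1.76%). Against the 8-month column labelled E1KO, E2KO was higher in 9 of 10 members (54.1% of all genes), with a median of 0.63. Only Creld2 was at least 2-fold higher there (1.11% of all genes). The column labelled E1KO was itself above WT in 9 of 10 members (46.7% of all genes), with a median of 0.46, and in 7 of 7 chaperone genes. There 1 member, Trib3, was at least 2-fold higher (0.843%). E2KO at 2 months lay the other way: it was the lowest 2-month column for 7 members and below WT for 8, and Creld2 was at least 2-fold lower (0.816% of all genes). Of all genes, 49.5% were above WT in that pair, and the share of all genes lowest in the 2-month E2KO column was not counted. With CCl4 no member reached a 2-fold difference from WT in any genotype, and the largest ratio between any 2 CCl4 columns was 1.52 (Herpud1). These comparisons share their WT column within a condition.

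**Figure D3:**
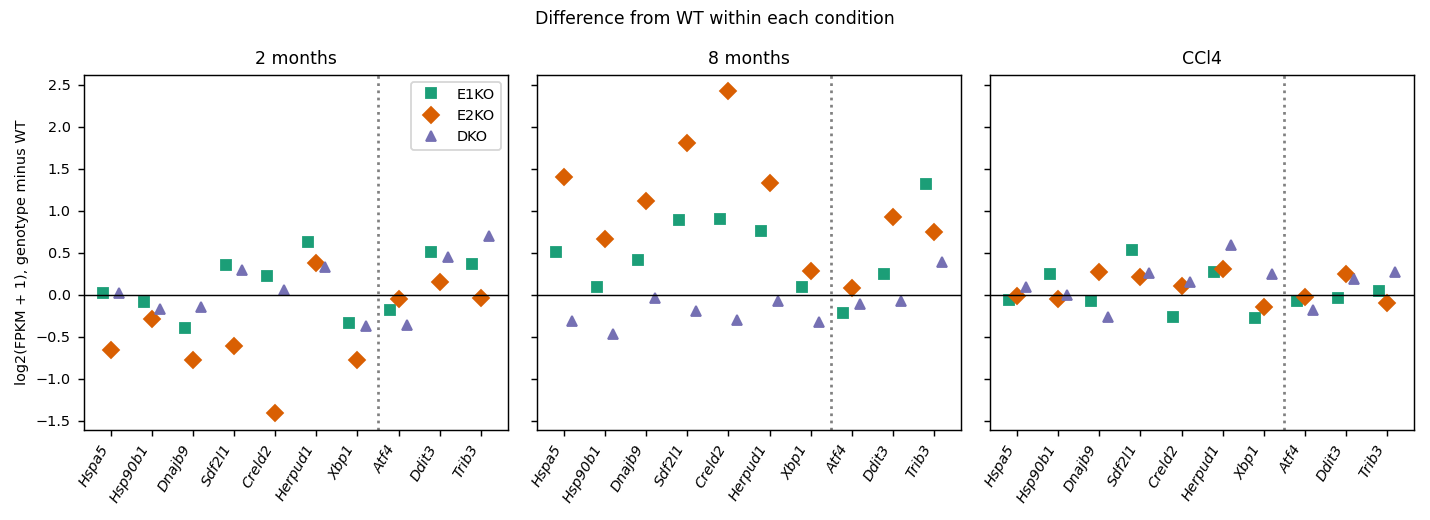
Difference of E1KO, E2KO and DKO from WT on the log2(FPKM + 1) scale, by gene, in each condition, with 1 value per point and no error. E2KO (orange) lies below 0 for 8 of 10 genes at 2 months and above 0 for 10 of 10 at 8 months, while CCl4 points lie between -0.28 (Xbp1, E1KO) and 0.60 (Herpud1, DKO).

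The change of E2KO from 2 to 8 months was set against the average change of the other 3 genotypes, and not of WT alone, in a limma fit with added E2KO-by-condition terms for 8 months and for CCl4, a test added after the values were seen. The 8-month term called no gene (0%), and 740 genes had an unadjusted p under 0.05. The estimates of members were 3.74 for Creld2 (adjusted p = 0.374), 2.41 for Sdf2l1 (0.426) and 2.01 for Hspa5 (0.447), in a fit with 4 residual degrees of freedom. The test thus did not pass for any member, and each group holds 1 value.

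Several values moved beside the high 8-month E2KO column, and their part in it was not tested. Of all genes, 49.6% were above WT in that column. Summed, the 7 chaperone genes measured 2362.21 FPKM there and 870.57 to 1698.43 in the other 11 columns. Heat shock genes of a separate stress response, cytosolic but for the mitochondrial Hspd1 and Hspe1, were above WT in 12 of 13 with a median of 0.38. Hepatocyte markers were above WT in 13 of 15, with a median of 0.25. Circadian clock genes, which would move with the hour of death, were above WT in 9 of 14, with a median of 0.06. Plasma and B cell markers, of cells with a large ER, summed to 4.99 FPKM against 2.77 to 22.42 in the other columns, and muscle markers to 2.03. Of the plasma and B cell markers Igj made up 3.86 FPKM and Tnfrsf17 was at 0. Macrophage markers were above WT in 10 of 10, with a median of 0.26, and stellate markers in 1 of 10, with a median of -0.17.

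Lists of other genes of the response are given for the same pair of columns, E2KO against WT at 8 months. Other ER chaperones and foldases were above WT in 20 of 27, with a median of 0.28, and 2 were at least 2-fold higher. Genes of ER degradation and translocation were above in 23 of 33 (median 0.18), sensors and other transcription factors in 13 of 17 (0.11), ATF4 and CHOP targets in 20 of 28 (0.19) and aminoacyl-tRNA synthetases in 11 of 12 (0.30), with 2, 1, 1 and 0 at least 2-fold higher. These medians stand beside 0 over all genes, of which 49.6% were above WT.

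Genes were also ranked by likeness with Hspa5, so their high values in the 8-month E2KO column follow in part from how they were chosen. The 5 genes whose pattern over the 12 columns was most like that of Hspa5 were Pdia4 (r = 0.967), the member Creld2 (0.967), Hyou1 (0.961), Edem3 (0.961) and Atp2a2 (0.934). Pdia4 is a disulfide isomerase, Hyou1 a large ER chaperone, Edem3 a glycoprotein degradation factor and Atp2a2 the calcium pump that fills the ER. After each condition's mean was taken off, the 5 were Creld2 (0.985), Whsc1l1 (0.978), Hyou1 (0.978), Syvn1 (0.975), which is the ubiquitin ligase of ER-associated degradation, and Pdia4 (0.970). Whsc1l1 is a histone methyltransferase gene and not a known part of the response. Syvn1 measured 82.94 FPKM in E2KO at 8 months and 14.69 to 41.31 elsewhere. The points share libraries and 1 extreme column, so these correlations describe likeness and nothing more. Without the 8-month E2KO column, r with Hspa5 was 0.971 for Pdia4, 0.964 for Creld2, 0.952 for Hyou1, 0.966 for Edem3 and 0.915 for Atp2a2 as measured. With condition means taken off it was 0.946 for Whsc1l1 and 0.932 for Syvn1. Among members, r with Hspa5 as measured was 0.922 for Hsp90b1, 0.844 for Sdf2l1, 0.826 for Dnajb9 and 0.575 for Xbp1, but 0.073 for Herpud1, 0.051 for Ddit3, -0.078 for Trib3 and -0.25 for Atf4. With the condition means taken off, Herpud1 reached 0.788 and Ddit3 0.846, whereas Atf4 stayed at 0.102. Without the 8-month E2KO column Herpud1 was at 0.495, Ddit3 at 0.545 and Atf4 at -0.467. Without the 8-month column labelled E1KO they were at 0.792, 0.853 and 0.163. As measured, r without the 8-month E2KO column was -0.403 for Herpud1, -0.512 for Ddit3, -0.694 for Atf4 and -0.076 for Trib3. The sign of r for Herpud1 and Ddit3 as measured thus depended on 1 column. At 2 months E2KO differed from WT by -0.66 for Hspa5 but by 0.38 for Herpud1 and 0.15 for Ddit3.

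Ddit3 had other neighbours. Over the 12 columns its pattern was most like those of Txnip (r = 0.962), which encodes a thioredoxin inhibitor, Banp (0.936), Aacs (0.934), Ppp1r3g (0.906) and Naa16 (0.894). With condition means taken off the list was Txnip (0.941), Fam46c (0.899), the member Herpud1 (0.895), Chsy3 (0.893) and Rab11b (0.889). Txnip measured 82.94 FPKM in E2KO at 8 months, 27.64 in WT and 27.62 in DKO at that age, and 14.87 to 25.92 with CCl4. Without the 8-month E2KO column r of Txnip with Ddit3 was 0.915 as measured and 0.817 with condition means taken off. In that case Naa16 was at 0.737 as measured, and Fam46c at 0.752 and Chsy3 at 0.648 with condition means off.

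**Figure D4:**
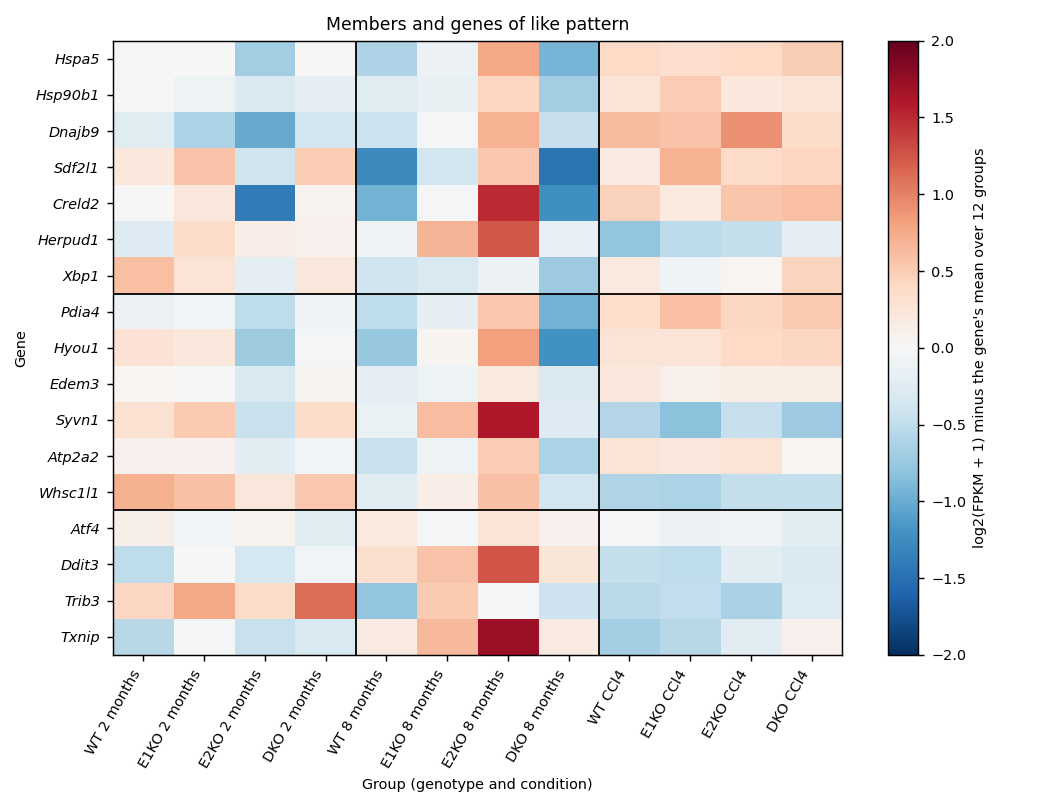
log2(FPKM + 1) minus each gene's mean over the 12 groups (colour, red above and blue below), with genes in rows and groups in columns. Rows are the 7 chaperone genes, then 6 genes of like pattern to Hspa5, then Atf4, Ddit3, Trib3 and Txnip. The 8-month E2KO column is red for all of the chaperone genes but Xbp1.

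The other genes of the pathway, taken from lists, are given by their counts with CCl4, to be read against the 33.4% of all genes called higher and 24.5% called lower. Of 27 other ER chaperones and foldases, 13 rose and 3 fell against 2 months in limma, with a median difference of 0.53 against 0.07 over all genes. Dnajc10, an ER reductase, rose by 1.70 (adjusted p = 3.18e-05), the disulfide isomerase Pdia6 by 0.93 (0.000783), the ER stress-induced factor Manf by 0.93 (0.0283) and the lectin chaperone Canx by 0.88 (0.00119). Of 33 genes of degradation and translocation at the ER, 16 rose and 4 fell. Spcs1 and Sec11c, parts of the signal peptidase, rose by 1.83 (7.95e-05) and 0.88 (0.00033), the ubiquitin-conjugating enzyme gene Ube2g2 by 0.97 (0.000887) and the translocon gene Ssr3 by 0.94 (0.000101). Of 17 sensors and other transcription factors of the response, 4 rose and 1 fell. The ATF6 relative Atf6b rose by 0.37 (0.0123), and Creb3l1, an ER-bound factor of secretory cells, by 0.68 (0.0182). Creb3l1 was near the filter of 1 FPKM, with means of 0.81 FPKM at 2 months and 2.015 with CCl4, and its pairs ran from 0.10 to 1.39. The others that rose were Eif2s1, the gene of eIF2alpha, by 0.62 (0.000204) and Creb3l2 by 0.58 (0.0138). Shares of higher calls were above the background in the first of these lists and the second and below it in the sensors, and no list was tested as a whole. Without the 8-month column labelled E1KO the counts were 12 and 3, 17 and 4, and 4 and 1.

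Of 28 ATF4 and CHOP targets 10 rose and 8 fell with CCl4 against 2 months, both near the share of all genes (33.4% and 24.5%), and Atf4 and Ddit3 themselves did not pass. The serine synthesis genes Psat1 and Phgdh rose by 3.13 (adjusted p = 1e-05) and 1.81 (4.51e-05), the asparagine synthetase gene Asns by 2.57 (5.26e-05) and the mitochondrial folate gene Mthfd2 by 1.53 (0.000494). Psat1 measured 0.23 to 0.54 FPKM in the 4 columns of 2 months and 9.43 to 13.64 with CCl4. Trib3 was at 1.68 to 2.47 FPKM in the same CCl4 columns. A further pair of genes, named after their values were seen, fell like Trib3: Chac1, a glutathione-degrading enzyme gene, by 1.11 (0.0137), and Ppp1r15a, which encodes the eIF2alpha phosphatase subunit GADD34, by 0.62 (0.0044). Chac1 was lower in 3 of 4 genotypes. Of 12 aminoacyl-tRNA synthetases, which ATF4 also drives, 4 rose and none fell, led by Gars (0.51, adjusted p = 0.000281), again near the 33.4% of all genes.

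Cell type markers moved with CCl4 too, and their part in these results was not tested. Stellate cell and myofibroblast markers rose in 10 of 10 and summed to 137.76 to 323.29 FPKM with CCl4 against 21.28 to 48.71 at 2 months. Macrophage markers rose in 8 of 10 (236.59 to 532.17 against 84.75 to 136.39), cholangiocyte markers in 4 of 4, and cell cycle genes in 17 of 17. Hepatocyte markers rose in 1 of 15 and fell in 7 (11305.84 to 20831.36 against 21628.68 to 24882.87). The genotypes were not alike: WT, E1KO and E2KO with CCl4 summed to 11305.84, 12004.62 and 12424.72 FPKM, and DKO to 20831.36. DKO with CCl4 also held the largest departure from the additive fit for 19.3% of all genes, and for 0 of the members. Circadian clock genes, which are not cell type markers and would move with the hour of death, rose in 3 of 14 and fell in 8. Their median was -0.72. Nr1d1 differed by -2.37 (adjusted p = 0.000219) and Dbp by -2.18 (0.000106), each lower in 4 of 4 genotypes. The part of the hour of death was not tested.

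At 8 against 2 months, where 2.70% of all genes were called higher and 1.59% lower, the listed genes mostly did not pass. Of the 27 other chaperones none rose and 3 fell: Fkbp11, a secretory-cell prolyl isomerase gene, by 1.47 (adjusted p = 0.0209), the disulfide isomerase gene Pdia5 by 0.76 (0.0265) and the isomerase gene Ppib by 0.72 (0.00794). Of the 33 degradation and translocation genes, Sec61a1, the channel itself, fell by 0.50 (0.0396), and of the synthetases Eprs fell by 0.46 (0.0299). Without the 8-month column labelled E1KO only Ppib of these 5 still passed (-0.72, adjusted p = 0.0371), and Fkbp11 (-1.34, 0.0734), Pdia5 (-0.74, 0.0897), Sec61a1 (-0.50, 0.111) and Eprs (-0.51, 0.0668) did not. Fkbp11 ranged from 32.81 to 79.97 FPKM in the 2-month columns, from 14.04 to 28.89 in the 8-month columns and from 84.33 to 104.44 in the CCl4 columns. Its value in E2KO at 8 months was the lowest of the 12, unlike that of Hspa5. With CCl4 against 8 months, 18 of the 27 other chaperones rose and 2 fell, and 20 of the 33 degradation and translocation genes rose and 5 fell, against 34.3% and 25.2% of all genes. Without the column labelled E1KO these were 15 and 2, and 20 and 4, against 30.6% and 21.3%.

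In the DKO contrast 1 of the 28 ATF4 and CHOP targets was called, against 2.62% of all genes. Ddit4, a stress-induced inhibitor of the growth kinase mTORC1, stood in DKO at 20.05 FPKM at 2 months (WT 4), 14.91 at 8 months (WT 3) and 13.31 with CCl4 (WT 3.2). The difference was 1.94 ± 0.24 (adjusted p = 0.0104), with DKO higher in 3 of 3 conditions. E1KO lay between at 19.28, 9.5 and 6.3 FPKM in the same order of conditions, a difference from WT of 1.40 ± 0.24 that did not pass (adjusted p = 0.307). Without the 8-month column labelled E1KO these were 1.94 (0.0186) and 1.48 (0.351). No member passed in this contrast.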

How the data were processed

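The authors deposited 1 table of FPKM values for 12 RNA-seq groups of mouse liver, with 1 column per group. Per the labels' protocols, TruSeq libraries came from 1 ug of liver RNA. Per the submitters' processing notes the tools were CASAVA, TopHat, Cufflinks, BWA, SICER and HOMER on mm9. Versions, and how the titled replicates became 1 column, are likewise not given in the sources used here. FPKM keeps no read counts, so depth is unknown and intervals for counting error cannot be had. The 9 ChIP-seq samples are not analysed here.

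Genes with at least 1 FPKM in 2 or more columns were kept and log2(FPKM + 1) entered limma 3.58.1 (R 4.3.3) (additive genotype and condition terms, trended eBayes, 6 residual degrees of freedom, or 4 with DKO-by-condition or E2KO-by-condition terms). A pseudocount of 1 understates the change of low genes. Adjusted p-values are Benjamini-Hochberg over all genes tested, at 0.05. They test the named difference or term against a spread taken from departures of the columns from the fit, not from spread between animals. Within a condition, differences of at least 1 (2-fold) were counted with no test. The steps were tested on simulated data. The members and lists were chosen with earlier results of these data known. Named genes are all members, up to 4 called genes of each list with the same sign in every matched pair, and the 5 genes most like Hspa5 and Ddit3. A few others are named after their values were seen. Alternatives changed the pseudocount, filter, scaling, trend, columns and reference. Promoters are from RefSeq on GRCm38.p6, matched by symbol for 10 of 10 members. Protein sequences were not used here.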

Additional observations from a re-analysis of the deposited data

Results flagged for a closer look

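For 4 chaperone-branch genes, E2KO lay below WT at 2 months and above WT at 8 months, by at least 0.5 on the log2(FPKM + 1) scale each way. The change between ages was 3.84 for Creld2 (-1.41 at 2 months, 2.43 at 8 months), 2.43 for Sdf2l1 (-0.61 and 1.81), 2.06 for Hspa5 (-0.66 and 1.40) and 1.90 for Dnajb9 (-0.78 and 1.12). Among all 11394 genes, 101 (0.886%) had this pattern and 166 (1.46%) had opposite signs in either order. Each group holds 1 value, so the difference of these pairs was not tested on its own, and the limma term that set E2KO from 2 to 8 months against the average of the other 3 genotypes did not pass for any of the 4. No group was large enough to look for an outlying sample.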

How the results depend on the processing

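Of 1080 values of single members under the alternatives, 981 kept their direction and side of the threshold, 23 newly passed, 33 no longer passed and 43 changed sign. No sign change touched a called value, and the cause of the changes was not tested. Dnajb9 and Trib3 (CCl4 against 2 months) passed throughout, and no member passed in E2KO against WT under any alternative.

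With CCl4 against 2 months, the members called were 5 with only the columns compared, 5 with the mean of 2 and 8 months as reference, and 2 to 5 when columns were left out. A filter of 5 FPKM, which tests fewer genes, gave 4103 called genes (4261 against 8 months). Against 8 months, 3 members were called with no filter, with columns scaled to 1 median and with the total without the 100 most abundant genes, and 2 to 8 when columns were left out. At 8 against 2 months, 0 members were called with no filter, with either of these scalings, with quantile normalization, without the trend and with only the columns compared (80 genes), and leaving out columns gave 0 to 1 members and 54 to 352 genes, against 489. DKO against WT called 111 genes with the 5 FPKM filter, 174 after quantile normalization, 21 with only the columns compared and 26 to 243 when columns were left out, against 299. E1KO against WT called 1 gene with the 5 FPKM filter, 1 after quantile normalization, 1 with only the columns compared, and 0 to 4 when columns were left out. The DKO-by-CCl4 term called 7 genes at a pseudocount of 0.1, 16 at 0.5, 300 with no filter, 7 with the 5 FPKM filter and 18 to 21 when 1 column was left out. The DKO-by-8-month term called 3, 328, 5 and 18 to 24 (pseudocount 0.1, no filter, 5 FPKM filter, 1 column left out).

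Sign changes came near 0 or when columns were left out. With CCl4 against 2 months, Xbp1 was 0.0274 after quantile normalization, 0.22 with both ages as reference and -0.19 to 0.0235 when columns were left out, and Sdf2l1 was -0.00364 to 0.29. At 8 against 2 months, quantile normalization gave 0.0382 for Hspa5 and 0.0404 for Hsp90b1, and leaving out columns gave -0.54 to 0.26 for Hspa5, -0.27 to 0.14 for Hsp90b1 and -0.84 to 0.56 for Creld2. In DKO against WT, scaling without the 100 most abundant genes gave 0.011 for Hspa5 and 0.0446 for Creld2, which was 0.00458 at 1 median and 0.0395 after quantile normalization. Leaving out columns gave -0.14 to 0.0586 for Hspa5 and -0.12 to 0.11 for Creld2. In E1KO against WT, Dnajb9 was 0.00407 at 1 median, 0.0286 after quantile normalization, 0.0308 without the 100 most abundant genes and -0.23 to 0.17 when columns were left out. Hspa5 ran from -0.0162 to 0.27 and Creld2 from -0.0223 to 0.56. In E2KO against WT, Atf4 was 0.00757 after quantile normalization and 0.00906 without the 100 most abundant genes. Leaving out columns there gave -0.33 to 0.70 for Hspa5, -0.21 to 0.31 for Hsp90b1, -0.25 to 0.70 for Dnajb9, -0.20 to 1.01 for Sdf2l1, -0.66 to 1.27 for Creld2, -0.47 to 0.0669 for Xbp1, -0.0406 to 0.0237 for Atf4 and -0.0665 to 0.36 for Trib3, the low ends without 8 months or its E2KO column. No paired analysis was possible because each group has 1 column, so no replicate block could be fitted, while the genotype term already matched conditions within a genotype. Depth is unknown, so its limit cannot be stated.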
